A study of Mus musculus with 5 samples.

Results

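The account concerns 10 mouse genes of the germ line on 5 microarrays of embryonic stem (ES) cells that carried a doxycycline-inducible Satb1 transgene. The genes, grouped here by role, are Dazl and Ddx4 (RNA-binding proteins of germ cells), Mael, Tdrd1 and Stk31 (proteins linked to the germ granule and the piRNA pathway), Stra8 and Sycp3 (meiosis), Tex101 and Slc25a31 (proteins of male germ cells) and Dppa3 (a protein of early embryos and primordial germ cells, also known as Stella). They were picked by name among 19938 genes measured, with no threshold on their values, and all 10 had at least 1 probe set that named no other gene. Where a gene had several probe sets, the brightest by its mean over the 5 arrays was used. No filter on low values was used, so all 10 entered every count.

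The arrays held total RNA from cells labelled tetO-Satb1, cultured with LIF and 15% serum. Both groups carried the transgene, whose promoter responds to doxycycline (DOX). The uninduced group, cells without DOX that the labels call controls, had 2 arrays. The induced group, cells given DOX for 24 h and labelled as overexpressing Satb1, had 3. The SATB1 protein organises chromatin in the nucleus through AT-rich DNA and has been studied most in thymocytes. Cells of both groups were harvested for RNA 48 h after passaging. The series title speaks of wild-type cells, whereas the sample titles give the same tetO-Satb1 name to the uninduced cells. No arrays of cells that received DOX but lacked the transgene were analysed here, so effects of DOX and of Satb1 cannot be told apart. The sources used here do not say whether the arrays came from separate cultures or clones, so p-values measure the spread between arrays, which may be technical. The comparison asks which genes differ when Satb1 is overexpressed.

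Germ cells use a set of genes that other cells keep switched off. For many of these genes the promoter carries CG dinucleotides that are methylated in somatic cells, and loss of the DNA methyltransferases lets them be transcribed. A Polycomb complex that contains MGA, MAX, E2F6, PCGF6 and L3MBTL2 also represses many of them in ES cells, where MGA with MAX binds the E-box CACGTG and E2F6 binds E2F sites. DNA methylation was not measured in these samples, so the description of the genes as silenced by methylation is background here.

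RefSeq promoter windows, 300 bases long with 250 before and 50 from the annotated start, were matched by symbol for 9 of the 10 genes, in 12 windows of build GRCm38.p6. Dppa3 was not matched. CG dinucleotides numbered 38 in the window of Ddx4, 28 in Dazl, 24 in Mael, 22 in Slc25a31, 19 in Tex101, 15 in Sycp3 and 10 in Stra8. Stk31 had 29 and 28 in its 2 windows, and Tdrd1 had 20, 25 and 3 in its 3 windows. The median over all 32851 windows was 7, and the 75th percentile was 20. All 9 genes thus had a window above the median. Ddx4, Dazl, Mael, Slc25a31, Stk31 and Tdrd1 had one above the 75th percentile, and Stra8 lay closest to the median.

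**Figure D1:**
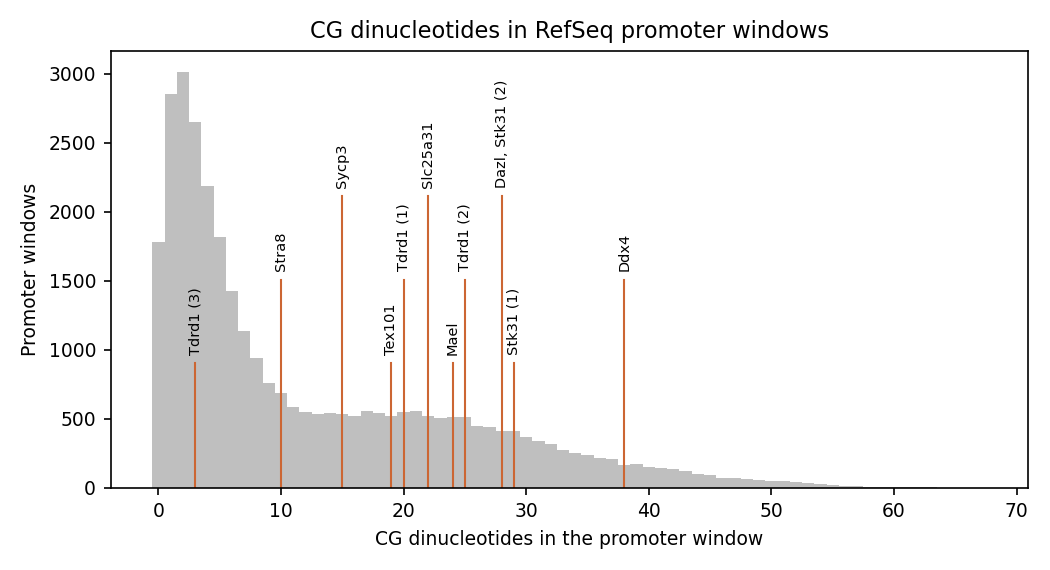
CG dinucleotides (x axis) in 32851 RefSeq promoter windows of 300 bases (grey bars, number of windows on the y axis), with the 12 windows of 9 germline genes marked by lines whose height has no meaning. Numbers in parentheses tell apart the windows of a gene. Except for the third window of Tdrd1, at 3, all lines lie above the median of 7.

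The letters CACGTG and TCCCGC (an E2F-like core, searched as TCCCGC and GCGGGA) were looked for on both strands. A gene counts here if any of its windows holds the letters. CACGTG was found in 6 of the 9 genes, in 8 of their 12 windows, and in 7.15% of all windows. Both windows of Stk31 overlap and hold the same CACGTG, and so do the first and second windows of Tdrd1. TCCCGC was found in 4 of the 9 genes, in 4 of the 12 windows, and in 20.0% of all windows. Among windows with at least 3 CG dinucleotides, the fewest in a window of the 9 genes, the shares were 8.73% and 25.8%. Both sets of letters contain CG, and closer matching on CG was not done. The longer letters GGCGGGA, which hold the TCCCGC core on the other strand, were found in 3 of the 9 genes, in 3 of the 12 windows, and in 11.3% of all windows. Both CACGTG and TCCCGC were in the windows of Ddx4, Mael, Sycp3 and Slc25a31, and in 1.99% of all windows. Those 4 windows hold the same letters. They are shown because, by the olfactory receptor reference described below, Ddx4 gave signal above the off range in ES cells and the other 3 did not. Capitals mark CACGTG and TCCCGC or its reverse complement GCGGGA. All are written 5′ to 3′ on the strand of the gene, from chr13:112652261-112652560 (minus strand) for Ddx4, chr1:166238695-166238994 (minus) for Mael, chr10:88459337-88459636 (plus) for Sycp3 and chr3:40708621-40708920 (plus) for Slc25a31.
Ddx4: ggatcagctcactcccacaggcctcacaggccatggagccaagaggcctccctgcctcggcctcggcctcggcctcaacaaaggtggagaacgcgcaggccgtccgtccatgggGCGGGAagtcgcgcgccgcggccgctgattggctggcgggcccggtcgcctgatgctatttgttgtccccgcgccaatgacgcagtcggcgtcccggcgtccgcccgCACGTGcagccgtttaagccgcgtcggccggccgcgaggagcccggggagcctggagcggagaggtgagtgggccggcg
Mael: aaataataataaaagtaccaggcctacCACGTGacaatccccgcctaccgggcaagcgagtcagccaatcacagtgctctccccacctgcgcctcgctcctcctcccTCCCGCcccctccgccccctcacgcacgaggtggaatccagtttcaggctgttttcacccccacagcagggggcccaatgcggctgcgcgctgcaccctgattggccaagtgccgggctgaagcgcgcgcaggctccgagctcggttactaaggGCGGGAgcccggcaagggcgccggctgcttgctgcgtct
Sycp3: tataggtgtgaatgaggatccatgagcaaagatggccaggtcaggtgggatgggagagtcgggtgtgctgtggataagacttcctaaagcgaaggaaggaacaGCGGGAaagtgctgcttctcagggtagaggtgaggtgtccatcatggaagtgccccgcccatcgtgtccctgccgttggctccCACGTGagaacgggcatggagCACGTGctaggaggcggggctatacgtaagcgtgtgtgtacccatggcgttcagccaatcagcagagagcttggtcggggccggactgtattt
Slc25a31: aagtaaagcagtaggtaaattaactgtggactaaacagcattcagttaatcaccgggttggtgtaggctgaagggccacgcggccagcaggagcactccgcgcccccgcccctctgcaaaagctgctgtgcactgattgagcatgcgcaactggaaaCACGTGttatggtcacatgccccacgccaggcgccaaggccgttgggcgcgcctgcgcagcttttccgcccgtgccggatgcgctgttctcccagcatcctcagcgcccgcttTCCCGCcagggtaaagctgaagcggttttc
The first base of CACGTG lay at -29 from the annotated start in Ddx4, at -223 in Mael, at -64 and -43 in Sycp3 and at -93 in Slc25a31. A match describes letters in the window and shows no binding.

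Whether a gene was on or off was read against genes that ES cells are not known to transcribe. The deposited table has no detection calls, so the 95th percentile of 1027 olfactory receptor genes on each array, between 4.87 and 4.89 on the log2 scale of the deposited values, served as the off reference. A gene was taken as above it when it exceeded this level on both uninduced arrays, as 53.9% of all genes did. Probe sets differ in how strongly they bind their transcript, so a value in the off range does not show that a transcript is absent, and no order among genes is read from the levels. By this reading 2 of the 10 germline genes, Ddx4 and Dppa3, gave signal above the off range, and 8 did not. The same 2 genes were above it on all 3 induced arrays. All 17 ES cell marker genes on the list used, such as Pou5f1, Sox2 and Nanog, were above the reference. The calls depend on the reference. At the 99th percentile of the olfactory receptor genes the count remained 2. With the vomeronasal and taste receptor genes as reference it was 5 (Dazl, Mael and Slc25a31 in addition), and 2 at their 99th percentile. With keratin-associated, beta-defensin and late cornified envelope genes it was 1 (Ddx4), and 0 at their 99th percentile.

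**Figure D2:**
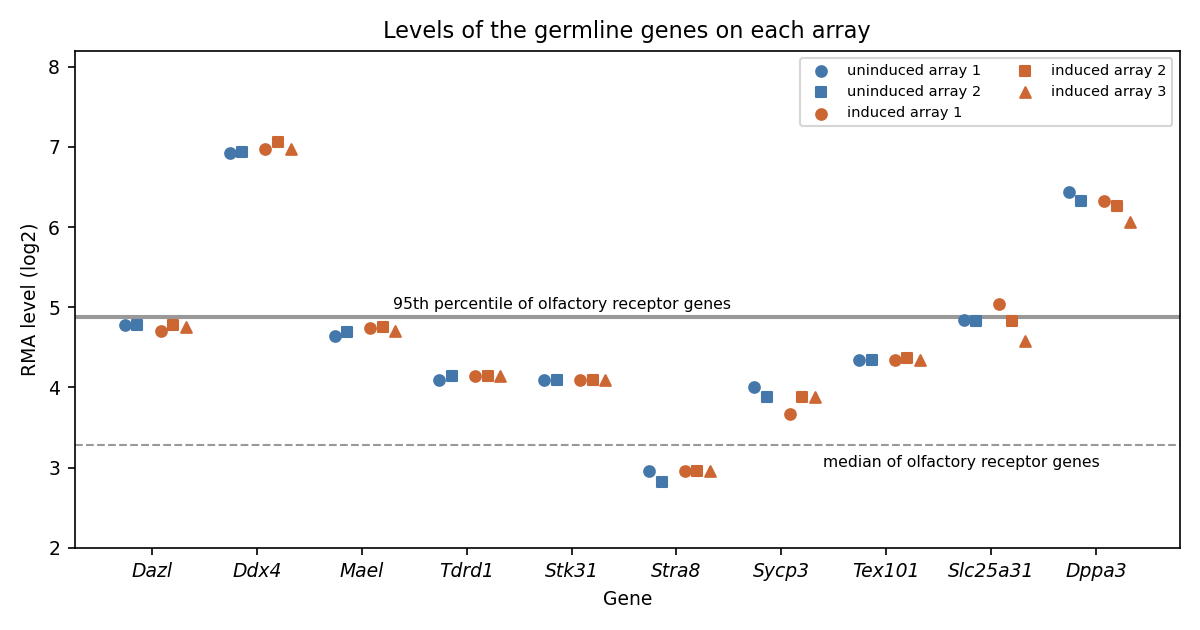
RMA level (log2, y axis) of each of the 10 germline genes (x axis) on the 2 uninduced arrays (blue) and the 3 induced arrays (orange), 1 point per array. The grey band spans the off reference of the 5 arrays (4.87 to 4.89) and the dashed line is the median of the olfactory receptor genes (3.28). Ddx4 and Dppa3 lie above the band on every array, and Slc25a31 does so on induced array 1 alone.

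Ddx4 encodes the DEAD-box RNA helicase known as VASA or MVH, a hallmark of the germ line. Its level was 6.92 and 6.94 without DOX and 6.98, 7.07 and 6.98 with DOX. It lay 2.05 above the off reference on each uninduced array, and only 1 of the 1027 olfactory receptor genes was at or above it. Each induced array was slightly above both uninduced arrays. The log2 change was 0.077 with a standard error of 0.035, which is 1.05-fold, and it did not pass the test over all genes (limma adjusted p = 0.770). No other gene overlaps Ddx4 in the GRCm38.p6 gene table.

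Dppa3 encodes a protein that shields maternal DNA methylation in the zygote and that is patchily expressed among ES cells in serum. Its level was 6.44 and 6.33 without DOX and 6.33, 6.26 and 6.06 with DOX. Induced array 3 was lowest, and induced array 1 had exactly the value of uninduced array 2, so the groups touched. The log2 change was -0.17 with a standard error of 0.10, and it did not pass (limma adjusted p = 0.770). It was -0.090 without induced array 3 and -0.23 without uninduced array 2. In RNA from whole cultures, fewer Dppa3-positive cells and less transcript per cell cannot be told apart. A second Dppa3 probe set had the value 5.55 on all 5 arrays, and the mean of both probe sets changed by -0.083.

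Dazl, an RNA-binding regulator of translation needed for germ cell development, was in the off range on all 5 arrays. Its level was 4.78 on both arrays without DOX and 4.70, 4.78 and 4.75 with DOX. The induced arrays reached but did not exceed the uninduced value, for a log2 change of -0.037 with a standard error of 0.028. It was -0.015 without induced array 1 and -0.056 without induced array 2.

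Mael, a factor of piRNA-directed transposon silencing, had 4.64 and 4.69 without DOX and 4.74, 4.76 and 4.71 with DOX. All induced values lay above both uninduced values and all were below the off reference. The log2 change was 0.072 with a standard error of 0.026, the smallest p among the 10 genes (0.056 unadjusted and 0.770 adjusted, limma). Mael was the only gene of the 10 with 5 distinct values.

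Tdrd1 encodes a Tudor-domain scaffold of the germ granule that binds Piwi proteins. It had 4.09 and 4.14 without DOX and 4.14 on each array with DOX. Stk31, which encodes a germ cell protein with a Tudor and a kinase-like domain, had the same value, 4.09, on all 5 arrays. On uninduced array 1 Stk31 and Tdrd1 had the same value, and each shared it with 214 other probe sets of that array, the other gene's included, counted as exactly equal. The deposited values were thus coarse at this level.

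Stra8, which retinoic acid induces before meiosis, was in the off range on all arrays. Its level was 2.95 and 2.82 without DOX and 2.95 on each array with DOX, below the median of the olfactory receptor genes (3.28). The value 2.95 was shared by 121 to 186 other probe sets on the arrays that held it. Sycp3, a component of the lateral element of the synaptonemal complex, had 4.01 and 3.88 without DOX and 3.67, 3.88 and 3.88 with DOX. Induced array 1 was lowest and the other induced arrays equalled uninduced array 2, for a log2 change of -0.13 with a standard error of 0.095. It was -0.064 without induced array 1. Sycp3 overlaps Chpt1 in the gene table, and Stk31 overlaps Gm17060. Whether the probe sets separate these pairs was not tested.

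Tex101 encodes a glycoprotein on the surface of male germ cells that is anchored by glycosylphosphatidylinositol. It had 4.34 on both arrays without DOX and 4.34, 4.37 and 4.34 with DOX. Slc25a31 encodes the ADP/ATP carrier of the testis (ANT4). It had 4.84 and 4.82 without DOX and 5.04, 4.82 and 4.58 with DOX. Its induced arrays spread to both sides of the uninduced ones, and array 1 alone was above the off reference, by 0.17. The log2 change was -0.018 with a standard error of 0.16, and without induced array 3 it was 0.10.

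None of the 10 genes passed the test of induced against uninduced cells (limma, adjusted over all 19938 genes), and none had an unadjusted p under 0.05. The share of all genes that passed was 0.0100% in the higher and 0.00502% in the lower direction, and 1.55% had an unadjusted p under 0.05. The mean was higher in 5 of the 10 genes, lower in 4 and the same in 1, with a median log2 change of 0.0050, against 0 over all genes. All induced arrays lay above both uninduced arrays in Ddx4 and Mael, and below them in none, where 1.65% and 3.08% of all genes did so. With exact permutation over the 10 splits of the arrays the smallest p that a single gene could reach is 0.1, so that test was not used. As a check of the labels, Satb1 stood at 5.14 ± 0.28 (log2 level, SD, n = 2) without DOX and at 8.69 ± 0.092 (SD, n = 3) with DOX. The change of 3.55 exceeded the spread between arrays many times over, yet Satb1 too missed the threshold (limma adjusted p = 0.229). It passed when the prior was taken from genes with 5 distinct values (limma adjusted p = 0.0038) and without uninduced array 1 or 2. A missed threshold in this test thus does not show that a gene did not change.

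**Figure D3:**
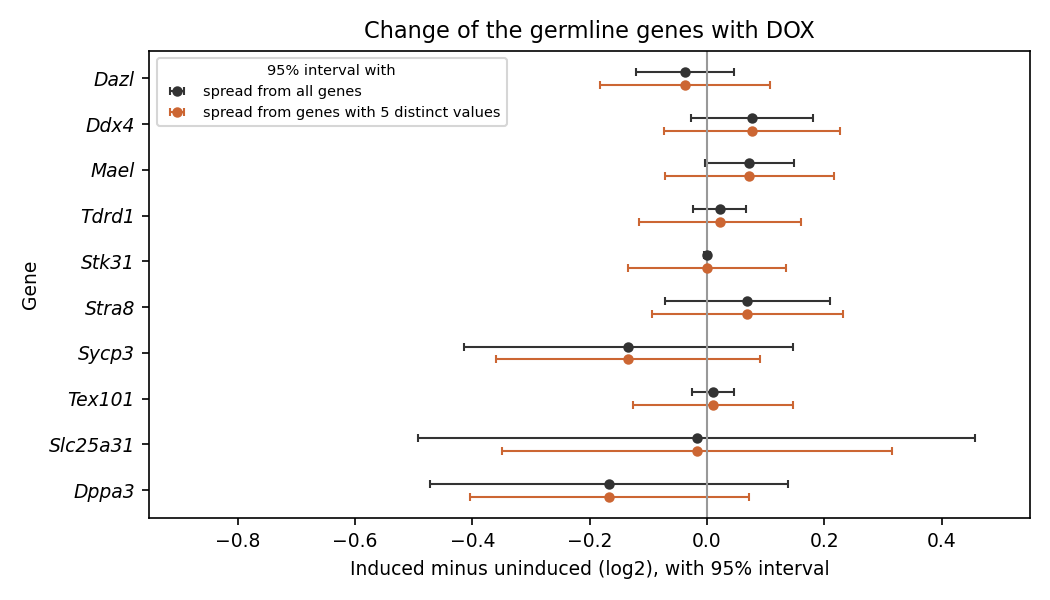
Log2 change, induced minus uninduced (x axis), of the 10 germline genes (y axis), with 95% intervals from limma using the spread over all genes (black) or over genes with 5 distinct values (orange). Points are differences of group means (2 and 3 arrays). All intervals include 0, and those of Stk31, Tex101 and Tdrd1 are much narrower in black.

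The intervals give the sizes that the data leave room for. Many genes had equal values on several arrays, which makes the spread within a group too small, so intervals are given with limma's prior from the 1800 genes with 5 distinct values. On the log2 scale the intervals were -0.074 to 0.23 for Ddx4, -0.40 to 0.071 for Dppa3, -0.071 to 0.22 for Mael, -0.36 to 0.091 for Sycp3 and -0.35 to 0.31 for Slc25a31. For Dazl, Stra8, Tdrd1, Stk31 and Tex101 they lay between -0.18 and 0.23. A change of 2-fold, which is 1 on the log2 scale, was outside the interval of each of the 10 genes with either prior. The standard errors quoted in the text, unlike these intervals, rest on the spread over all genes. Computed as for the intervals, they were 0.061 for Ddx4 and 0.058 for Mael, where the text gives 0.035 and 0.026. For Dppa3, Sycp3 and Slc25a31 they were smaller when computed that way, and the intervals printed above are the narrower ones for these genes. A missed threshold does not show that the groups were alike, and for a probe set in the off range a narrow interval says little about the transcript.

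Leaving out 1 array moved the log2 change of 9 of the 10 genes by more than 1.5 times, Stk31 being the exception. That of Ddx4 was 0.047 without induced array 2 and that of Mael 0.046 without uninduced array 1, and Slc25a31 was the 1 gene whose change took both signs. The call for 2 genes rested on a single array. Without uninduced array 1, Stra8 passed with a log2 change of 0.14 (limma adjusted p = 0.00021), and without uninduced array 2, Tdrd1 passed with 0.043 (adjusted p = 0.00087). In both fits the induced arrays all had 1 value and a lone uninduced array was assumed to vary like them. Those fits called 1980 and 1979 genes in all, 9.93% of those tested in each, against 3 with all arrays.

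Other germline genes, on lists set by function, gave no call either. Of 15 measured genes of the piRNA pathway and germ granule, 5 were above the off reference, against 53.9% of all genes. These 5, named after their values were seen, were Rnf17, Piwil2, Pld6, Mov10l1 and Tdrd5. The median log2 change of the list was 0.016. Its genes with the smallest p were Tdrd7 at 0.045, Henmt1 at 0.054, Mov10l1 at 0.012 and Tdrd6 at 0.095. Piwil2, a Piwi protein gene, had the value 6.47 on all 5 arrays.

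Of 21 measured meiosis genes, 10 were above the off reference, against 53.9% of all genes, and the median log2 change was -0.0051. Of these 10, Rec8, Stag3, Mei1 and Meioc, named after their values were seen, were not above the 99th percentile of the olfactory receptor genes. The smallest p belonged to Syce2, a gene of the central element of the synaptonemal complex, at 7.55 and 7.47 without DOX and 7.41, 7.41 and 7.38 with DOX. All its induced values were below both uninduced values. Its change was -0.11 ± 0.033 (standard error, limma adjusted p = 0.770). Its partner Syce1 had -0.17 ± 0.063 and also had all induced arrays below both uninduced arrays. Sycp1, which encodes the transverse filament, had 0.085 ± 0.045 from levels in the off range, and Msh5 had 0.13 ± 0.079. Hormad1, named after its values were seen, had the largest change of the list, -0.21 ± 0.17, and was the third gene of the 21 with all induced arrays below both uninduced arrays, as 3.08% of all genes were. Of the synaptonemal complex genes, Syce1 and Syce2 gave signal above the off range in ES cells, whereas Sycp3, Sycp1, Sycp2 and Tex12, a further gene of the central element, did not.

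Genes of spermatogonia, oocytes and germ cell specification were above the off reference in 13 of 19, against 53.9% of all genes. Dppa5a, Dppa4 and Zfp42, which were above it, are also on the list of ES cell markers. Nanos2, Prdm1, Sohlh1 and Tcl1, named after their values were seen, were above it but not above the 99th percentile of the olfactory receptor genes. The median log2 change of the specification list was 0.010. Tfap2c, a transcription factor gene of germ cell specification, had -0.072 ± 0.020 (standard error), Dmrt1 0.23 ± 0.12, Prdm14 -0.068 ± 0.043 and Dnd1 0.062 ± 0.041. None of these passed. Dmrt1 had 0.072 without uninduced array 1 and 0.39 without uninduced array 2, and Prdm14 had -0.035 without induced array 2. Among 12 genes on the list of late spermatids, 2 were above the reference, Prm2 and Odf2, against 53.9% of all genes. Prm2, at 5.34 on both uninduced arrays, was not above the 99th percentile of the olfactory receptor genes. Whether genes of that list are also expressed outside spermatids was not examined. The smallest p on that list belonged to Prm1 at -0.11, Spata18 at 0.0085, Odf2 at -0.038 and Spem1 at -0.052. Across the 55 measured genes of the piRNA, meiosis and specification lists, 0 passed in either direction by limma, with 2 at an unadjusted p under 0.05 (Syce2 and Tfap2c), against 1.55% of all genes. The count was also 0 when limma's prior came from genes with 5 distinct values. Without uninduced array 1 or 2, in the fits with a lone uninduced array, 4 and 5 of them passed, against 9.93% of all genes in each fit. Tex15 and Dppa2 passed in both fits, lower without array 1 and higher without array 2.

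**Figure D4:**
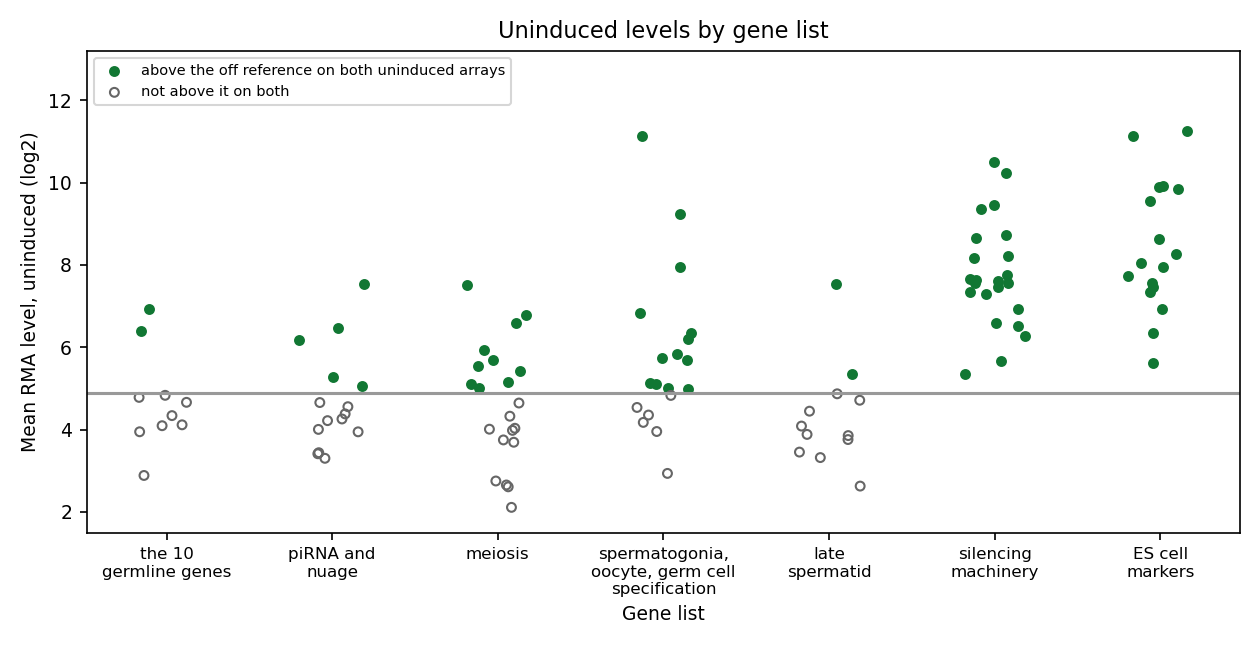
Mean RMA level of each gene on the 2 uninduced arrays (log2, y axis) by gene list (x axis), 1 point per gene and random sideways placement. Filled points were above the off reference (grey band) on both uninduced arrays, as 53.9% of all genes were. This holds for 2 of the 10 germline genes, 5 of 15, 10 of 21, 13 of 19 and 2 of 12 genes of the next 4 lists, and all 23 and 17 genes of the last 2.

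Genes of the machinery that silences such genes, with the DNA demethylases Tet1 and Tet2 on the same list, were above the off reference in 23 of 23. The lowest was Ring1, a Polycomb gene, at 5.35 on each uninduced array, which was not above the 99th percentile of the olfactory receptor genes. Of the methyltransferase genes, Dnmt1, the maintenance enzyme, had 8.16 on both arrays without DOX and 8.16, 8.16 and 8.13 with DOX. Dnmt3a and Dnmt3b, the de novo enzymes, had log2 changes of 0.098 ± 0.056 (standard error) and 0.042 ± 0.025. Dnmt3l, their cofactor without catalytic activity, had 9.29 and 9.41 without DOX and 9.15, 9.18 and 9.02 with DOX. All its induced values were lower, for a change of -0.23 ± 0.072. Tet2, a 5-methylcytosine dioxygenase gene, had -0.37 ± 0.088, again with all induced arrays below both uninduced arrays.

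Uhrf1 encodes the protein that brings DNMT1 to newly replicated DNA. It had 8.65 and 8.67 without DOX and 8.60 on each array with DOX, a change of -0.061 ± 0.0054. This small standard error rests on the spread over all genes. Computed as for the intervals above, Uhrf1 had a standard error of 0.055, about the size of its change. It had the smallest p of the list and did not pass (limma adjusted p = 0.649), except without uninduced array 1 or 2, where the induced arrays had 1 value and the adjusted p was 0.00040 or 0.00059. Of the Polycomb complex genes, Mga had -0.071 ± 0.025, E2f6 0.065 ± 0.065 and Pcgf6 -0.047 ± 0.037. E2f6 changed sign, to -0.021, without uninduced array 1 and had 0.15 without array 2, Mga had -0.040 without uninduced array 2, and Pcgf6 had -0.016 without induced array 2. Without uninduced array 1, Dnmt3a had 0.031 and Dnmt3b 0.011, and without uninduced array 2 they had 0.16 and 0.072. None of the 23 genes passed with all arrays. An unadjusted p under 0.05 was found for 3 (Uhrf1, Tet2 and Dnmt3l), against 1.55% of all genes, and the median log2 change was -0.0091. All induced arrays were below both uninduced arrays in 5 of the 23 and above them in 1, Dnmt3a, against 3.08% and 1.65% of all genes.

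Markers of other cells were read beside these values. The treatment text in the labels names irradiated feeder cells, reduced by settling for 10 minutes. Of 23 measured fibroblast markers, 12 (52.2%) were above the off reference, close to the 53.9% of all genes. The mean level of the 23 was 5.10 and 5.11 without DOX and 5.09, 5.10 and 5.13 with DOX. Of 10 measured markers of Sertoli cells and other somatic cells of the gonad, 4 were above it. Of 7 measured markers of 2-cell-like cells, 2 were above it, Usp17ld and Usp17lc, and Zscan4c, Zscan4d and Zscan4f had no probe set of their own. The part of these cells in the levels of Ddx4 and Dppa3 was not tested. The arrays were close to each other, with Pearson's r between 0.9972 and 0.9979 across genes, which are not independent replicates. With 5 arrays in all, precision was limited throughout.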

How the data were processed

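RNA from 5 samples was measured on microarrays. The values, for 35557 probe sets, are on a log2 scale as deposited, and the authors made them with RMA, per the submitters' processing notes, which give no version. The scale was read from the values. Normalization between arrays hides a shift of all transcripts. Gene symbols came from the annotation of the array (1 symbol for 21789 probe sets, several for 1621, 12147 with none or not listed), and 19938 genes resulted. Members were matched to the GRCm38.p6 gene table by gene identifier, and promoter sequences are RefSeq's.

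Ties between arrays were common: 5 distinct values were seen in 9.03% of genes and a single value in 15.1%, and between 36.0% and 38.2% of the probe sets of an array shared their value with another probe set of the same array. The prior SD in limma was 0.0050 over all genes and 0.086 over genes with 5 distinct values. The standard errors printed beside log2 changes rest on the former unless stated otherwise.

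Groups came from the sample titles. The test was limma's (version 3.58.1, R 4.3.3, functions lmFit and eBayes, no trend). Its p-values were adjusted by Benjamini-Hochberg across the 19938 genes, and 0.05 was the threshold. The test was also run on simulated data, with and without the ties of the arrays, and the outcome is not given here. The members, lists, off reference and alternatives were chosen with earlier results of these data known. Named were all 10 members, Satb1, up to 4 genes with the smallest p from each list (and those above the off reference where fewer than 4 are), and Dnmt1, Uhrf1, Dnmt3a, Dnmt3b, Dnmt3l, E2f6 and Pcgf6. Other genes (among them Rnf17, Piwil2, Pld6, Tdrd5, Sycp2, Tex12, Hormad1, Tex15, Dppa2 and Ring1) were named after their values were seen. No genes were named by likeness of pattern, since 5 arrays are too few for a correlation. Fkbp6, Syce3, Fbn1, Rhox5 and several 2-cell-like markers had no probe set of their own. Alternatives were averaging a gene's probe sets, a filter at the median level, median centring, a repeated quantile normalization, a trended robust eBayes, the prior from genes with 5 distinct values, the title number as a block, each array left out, and other off references.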

Additional observations from a re-analysis of the deposited data

How the results depend on the processing

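The log2 changes of Dazl, Ddx4, Mael, Sycp3 and Dppa3 kept their direction in every alternative that gave a value (11 or 12 each), and none of these genes passed in any of them. The trended robust eBayes and the prior from genes with 5 distinct values cannot alter a log2 change, so they could not show a reversal. Averaging probe sets could alter it only for Dppa3. The replicate block gave the same change as leaving out induced array 3 (-0.040 for Dazl in both). Slc25a31 changed sign, to 0.10 with the replicate block, and leaving out single arrays gave -0.13 to 0.10. Leaving out single arrays gave 0 to 0.14 for Stra8 and 0 to 0.043 for Tdrd1, and each passed in 1 such fit. In these fits 0 to 1 of the 10 genes passed, 0 to 5 of the wider germline lists and 0 to 1980 of all genes, whereas 0 of the 10 passed in the other alternatives. With all arrays 3 genes passed over all genes; this count was 0 with centred arrays, with genes above the median level, with a repeated quantile normalization and with the replicate block. It was 1 when the prior came from genes with 5 distinct values. In fits with 1 uninduced array the spread came from tied induced arrays. Of 27 other genes named by rule, 21 moved by more than 1.5 times with an array left out, and 2 (E2f6 and Prm2) changed sign. The cause of the other differences was not tested. Among genes above the median level, Ddx4 and Dppa3 were the only members left, with a median change of -0.045. The count of members above the off reference was 5 with vomeronasal and taste receptor genes. With keratin-associated, beta-defensin and late cornified envelope genes it was 1, and 0 at their 99th percentile. The count was 2 in the other alternatives. Title numbers were not shown to pair arrays: deviations of same-numbered arrays from their group means correlated at -0.0063 and 0.0063. These values are not separate checks, since the deviations of the 2 uninduced arrays are equal and opposite. Signal near the off range limits what can be said of 8 of the 10 genes.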
